A study of Mus musculus with 11 samples.

Results

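The genes described here carry fatty acids into a cell and through mitochondrial β-oxidation, and they were chosen by name, as a list of 34 mouse genes. Of these, 30 had a named probe on the array, with 56 probes in all, among 25697 probes and 16593 named genes of the whole array. The remaining 4 genes (Acsl1, Acacb, Hadha and Ucp2) were not analysed here. The cells were HL-1, a mouse atrial cardiomyocyte line that came from an atrial tumour and still divides in culture. RNA was hybridized to 11 arrays after 23 h of culture with TGF-β2 (10 ng/mL, 4 arrays), PDGF-BB (100 ng/mL, 3 arrays) or no growth factor (control, 4 arrays). Each array came from 1 culture flask, all flasks had been grown in a medium with norepinephrine, and the growth factors were dissolved in serum-free medium. The question was whether either growth factor, given in a study that asked if such stimuli change what RNA the cells release in exosomes, shifted the transcripts of fatty acid use in the cells themselves.

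In the working heart, fatty acids are the main fuel. Lipoprotein lipase frees them from circulating triglyceride, transporters and binding proteins bring them in, and acyl-CoA synthetases join them to coenzyme A. The carnitine shuttle then moves them into mitochondria, where the β-oxidation spiral shortens them step by step and electron transfer flavoprotein passes the electrons on to the respiratory chain. Many of these genes are known targets of the PPAR and ERR nuclear receptors with the coactivator PGC-1, which bind variants of the half-site AGGTCA.

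To show the DNA beside the measurements, 3 promoters are printed, from 250 bases before to 50 after the gene start, credited to RefSeq on GRCm38.p6. Acadl is shown as the member whose array values stood furthest outside the replicate spread between TGF-β2-treated and control cells, with GC boxes (GGGCGG or its complement on the other strand) in capitals. Echs1, of the lowest p-value between the treated groups, and Acadm, a medium-chain dehydrogenase gene, are shown with the half-site AGGTCA, read on both strands, in capitals.
Acadl promoter, chr1:66863260-66863559, minus strand: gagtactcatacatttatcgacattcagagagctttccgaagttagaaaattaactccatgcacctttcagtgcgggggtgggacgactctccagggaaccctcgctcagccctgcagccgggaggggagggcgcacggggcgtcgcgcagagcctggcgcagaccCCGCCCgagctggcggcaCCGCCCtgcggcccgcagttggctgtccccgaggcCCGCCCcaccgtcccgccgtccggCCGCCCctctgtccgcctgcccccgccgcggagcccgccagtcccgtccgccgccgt
Echs1 promoter, chr7:140116372-140116671, minus strand: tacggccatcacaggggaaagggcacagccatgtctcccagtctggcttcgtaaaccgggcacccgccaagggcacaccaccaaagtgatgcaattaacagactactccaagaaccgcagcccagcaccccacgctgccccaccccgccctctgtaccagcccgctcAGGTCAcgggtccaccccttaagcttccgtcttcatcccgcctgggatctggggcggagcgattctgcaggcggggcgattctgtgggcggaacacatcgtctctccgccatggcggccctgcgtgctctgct
Acadm promoter, chr3:153944594-153944893, minus strand: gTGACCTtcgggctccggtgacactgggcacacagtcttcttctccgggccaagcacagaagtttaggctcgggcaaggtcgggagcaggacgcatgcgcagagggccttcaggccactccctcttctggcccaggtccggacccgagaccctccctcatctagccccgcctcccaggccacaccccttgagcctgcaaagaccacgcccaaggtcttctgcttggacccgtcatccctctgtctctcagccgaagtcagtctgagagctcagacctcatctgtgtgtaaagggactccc
Windows were found for 24 of the 30 genes, 26 windows in all, and AGGTCA was in 6 of them (23.1%), against 16.3% of all 32851 windows of that length. The 6 were those of Acadm, Acadvl, Cd36, Cpt1a, Echs1 and Ucp3. GGGCGG was in 16 windows (61.5%), against 35.7% of all windows. A match is a description of the letters and not a binding site.

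Of the 30 genes with a probe, 25 were detected on all 11 arrays (detection p-value under 0.05), and the same 25 also passed the study's cell threshold of a normalized signal above 30 on every array. Slc27a1 was detected on 9 arrays, namely 3 of TGF-β2-treated, 2 of PDGF-BB-treated and 4 of control cells. Cd36, the main fatty acid translocase of heart muscle, and Fabp4, the binding protein of adipocytes and endothelium, each had 1 probe. These probes were detected on no array, with lowest detection p-values of 0.0777 and 0.170. Cpt1a, the liver form of carnitine palmitoyltransferase 1, was detected on 1 array of PDGF-BB-treated cells, and the mitochondrial carrier Ucp3 on 1 control array. The 26 genes detected on at least 3 arrays were tested, and the other 4 were not.

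Markers of cardiomyocytes were detected on every array for 9 of 10 genes with a probe, the exception being the Ryr2 probe, which was detected on none. Of 6 adipocyte markers, 4 (Plin1, Cidec, Retn and Pparg) were detected on no array and 1, Lep, on all. No fibroblast or leukocyte marker was detected on every array, among 8 and 4 with a probe. Of the endothelial and smooth muscle markers, 1 of 7 (Egfl7) and 3 of 5 (Tagln, Acta2 and Smtn) were detected on all arrays. The summed normalized signal of the cardiomyocyte markers was 152000 to 170000 in TGF-β2-treated, 152000 to 172000 in PDGF-BB-treated and 151000 to 173000 in control cells. These ranges overlapped in all 3 groups. Each array detected 11401 to 12455 probes with a median of 34 to 38 beads per probe, and pairs of arrays correlated at 0.957 to 0.992 (Pearson's r over the tested probes). In RNA of a whole culture, less RNA per cell and fewer cells of a kind cannot be told apart.

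No tested member differed between groups after adjustment over the 12894 transcripts tested. With limma and Benjamini-Hochberg adjustment, 0 of 26 members were called for TGF-β2 minus control, PDGF-BB minus control and TGF-β2 minus PDGF-BB, where 0 transcripts in all (0%) were called in each comparison. At an unadjusted p under 0.05 there was 1 member, Acadl, for TGF-β2 minus control, against 2.02% of all transcripts. There were 0 members for PDGF-BB minus control, against 3.20%, and 0 for TGF-β2 minus PDGF-BB, against 5.13%.

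The size of the differences was small in each comparison. On the log2 scale the median over the 26 members was −0.01 for TGF-β2 minus control, 0.04 for PDGF-BB minus control and −0.03 for TGF-β2 minus PDGF-BB, against 0.00, 0.01 and −0.02 over all transcripts in the same order. Members lay from −0.40 to 0.39, from −0.36 to 0.43 and from −0.37 to 0.47. The 95% interval lay within a 2-fold change in either direction for 26 members for TGF-β2 minus control, and for 25 in each of the other comparisons, the exception being Slc27a1. Over all transcripts the share was 96.6%, 92.8% and 92.2%. Intervals within a 1.5-fold change were found for 23, 19 and 20 members. Changes beyond 2-fold thus lie outside nearly all of the intervals and changes beyond 1.5-fold outside most, whereas smaller changes can remain within them.

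**Figure D1:**
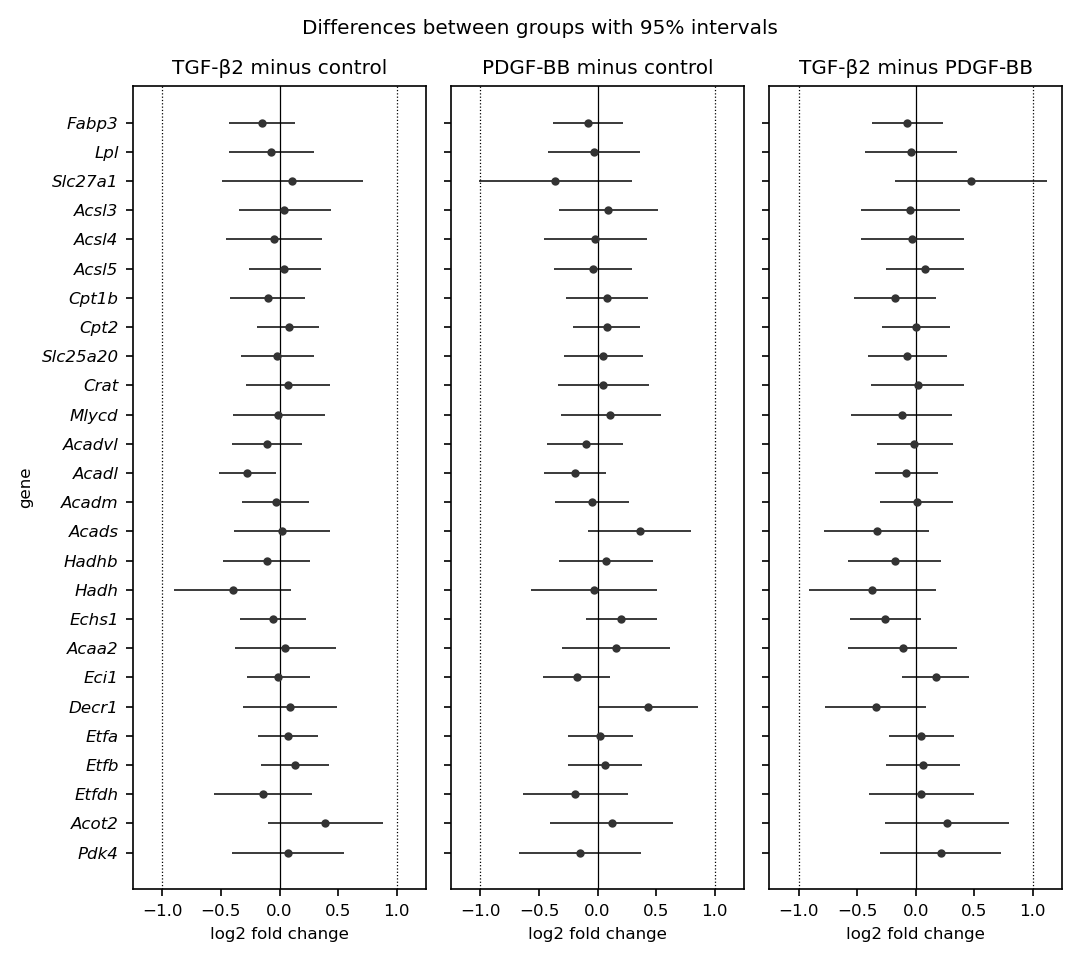
Log2 fold change (points) and 95% interval (bars) of the 26 tested genes in each of 3 comparisons, with dotted lines at a 2-fold change. Nearly all intervals cross 0, that of Acadl for TGF-β2 minus control lies below it, and that of Slc27a1 is wide enough to pass the 2-fold line for PDGF-BB minus control and TGF-β2 minus PDGF-BB.

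**Figure D2:**
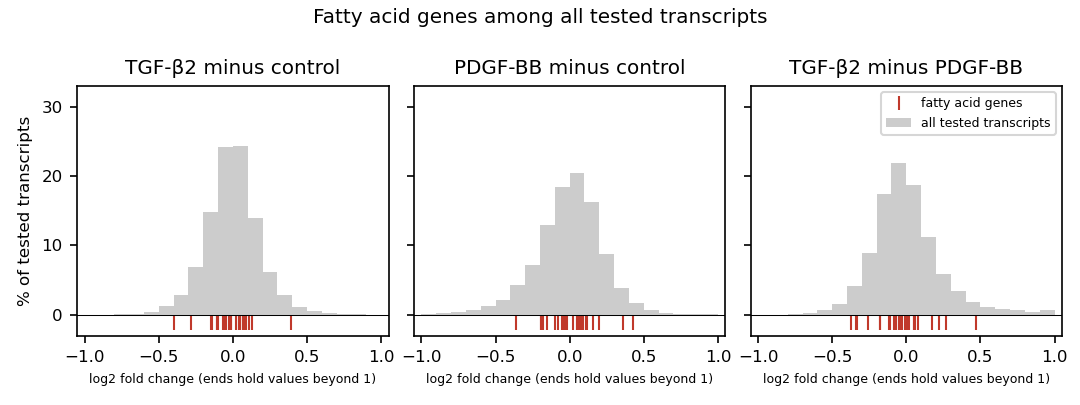
Share of the 12894 tested transcripts by log2 fold change in bins of 0.1 (grey bars, the end bins holding values beyond them), with the 26 fatty acid genes as red ticks. The ticks lie within the grey bulk in every comparison.

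Among the uptake genes, Fabp3, the heart-type fatty acid binding protein, gave log2 intensities of 14.65, 14.58, 14.53 and 14.30 in TGF-β2-treated, 14.66, 14.55 and 14.54 in PDGF-BB-treated and 14.62, 14.84, 14.63 and 14.57 in control cells. The groups overlapped, and TGF-β2 minus control was −0.15 (95% interval −0.43 to 0.13, unadjusted p = 0.270). Lpl, which encodes lipoprotein lipase, lay between 13.29 and 13.83 in TGF-β2-treated, 13.32 and 13.85 in PDGF-BB-treated and 13.33 and 13.82 in control cells, so its groups overlapped almost fully. Slc27a1, which encodes the transporter FATP1, was dim and had the widest spread of the tested members, with a pooled SD of 0.46. Its values were 6.39, 6.86, 6.27 and 5.28 in TGF-β2-treated, 5.84, 5.98 and 5.37 in PDGF-BB-treated and 5.78, 6.01, 6.32 and 6.26 in control cells. One TGF-β2 array was below all PDGF-BB arrays while the other 3 were above them. TGF-β2 minus PDGF-BB was 0.47 (95% interval −0.18 to 1.12, unadjusted p = 0.144). Without that array, TGF-β2 replicate 4, it was 0.78 (unadjusted p = 0.00469, adjusted p = 0.667 with limma), whereas without TGF-β2 replicate 2 it was 0.26 and without PDGF-BB replicate 3 it was 0.29. On chip 1 alone the Slc27a1 difference was 0.78 and on chip 2 alone 0.10, and its adjusted p lay between 0.630 and 1 over all alternatives.

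The acyl-CoA synthetase genes, whose products activate fatty acids for oxidation or storage, lay near the control mean on the brightest probe of each. Acsl3 averaged 10.01 ± 0.29, 10.05 ± 0.20 and 9.96 ± 0.27, Acsl4 averaged 7.47 ± 0.28, 7.50 ± 0.38 and 7.52 ± 0.15, and Acsl5 averaged 12.33 ± 0.18, 12.25 ± 0.19 and 12.29 ± 0.10 in TGF-β2-treated, PDGF-BB-treated and control cells (SD, n = 4, 3 and 4). All groups overlapped. The 3 genes lay from −0.05 to 0.04 for TGF-β2 minus control and from −0.04 to 0.09 for PDGF-BB minus control on these probes. A dimmer Acsl4 probe, detected on 9 arrays, gave 5.91, 5.11, 6.94 and 5.63 in TGF-β2-treated, 6.48, 5.84 and 6.65 in PDGF-BB-treated and 6.26, 6.08, 6.54 and 6.89 in control cells. Its groups overlapped, 1 TGF-β2 array being the highest of all and the other 3 below every control array. On this probe TGF-β2 minus control was −0.55 (95% interval −1.26 to 0.17, a fold of 0.685, unadjusted p = 0.122) and TGF-β2 minus PDGF-BB −0.43. The spread between the Acsl4 probes, 0.50 for TGF-β2 minus control, was the largest of the members with several tested probes.

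The carnitine shuttle is represented by Cpt1b, the muscle form of the entry step, Cpt2 on the inner membrane, Slc25a20, the carnitine-acylcarnitine carrier, and Crat, carnitine acetyltransferase. Cpt1b averaged 8.71 ± 0.26, 8.89 ± 0.15 and 8.81 ± 0.07 in TGF-β2-treated, PDGF-BB-treated and control cells (SD, n = 4, 3 and 4), and the 4 control arrays lay closer together than the treated ones. A second Cpt1b probe gave 6.50, 7.01, 6.93 and 6.37 in TGF-β2-treated, 7.38, 6.92 and 7.33 in PDGF-BB-treated and 6.81, 7.43, 6.56 and 7.08 in control cells. Its TGF-β2 minus PDGF-BB value was −0.51 (unadjusted p = 0.0448, adjusted p = 0.966 with limma), where the first probe gave −0.18, and both had overlapping groups. Cpt2 spanned only 0.28 over all 11 arrays, from 10.78 to 10.92 in TGF-β2-treated, 10.66 to 10.93 in PDGF-BB-treated and 10.65 to 10.86 in control cells. Slc25a20 and Crat had overlapping groups in every comparison, with log2 fold changes from −0.07 to 0.07 for both on the brightest probe of each. A second tested probe of each also had overlapping groups. That of Slc25a20 gave 0.19 for TGF-β2 minus control, 0.28 for PDGF-BB minus control and −0.09 for TGF-β2 minus PDGF-BB. That of Crat gave 0.02, 0.21 and −0.20 in the same order. Mlycd, which encodes the decarboxylase that removes malonyl-CoA, the inhibitor of the entry step, averaged 9.62 ± 0.24, 9.74 ± 0.05 and 9.63 ± 0.36 in the same order of groups.

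Of the acyl-CoA dehydrogenases, which open each turn of the spiral and differ in the chain length they accept, only Acadl separated treated from control cells. Acadl, the long-chain enzyme, gave 10.741, 10.754, 10.754 and 10.729 in TGF-β2-treated, 10.847, 10.708 and 10.922 in PDGF-BB-treated and 11.074, 10.995, 11.014 and 10.995 in control cells (log2 intensity, to 3 decimals since the values lie close together). All 4 TGF-β2 and all 3 PDGF-BB arrays were below every control array, and the treated groups overlapped with each other. TGF-β2 minus control was −0.28 (SE 0.11, 95% interval −0.52 to −0.03), a fold of 0.826, with an unadjusted p of 0.0319 and an adjusted p of 1 with limma. PDGF-BB minus control was −0.19 (95% interval −0.46 to 0.07, unadjusted p = 0.140). Both comparisons share the control arrays.

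The difference of Acadl did not pass adjustment, and its 3 probes did not give 1 picture. The second probe gave 7.72, 7.80, 8.41 and 7.87 in TGF-β2-treated, 7.18, 8.07 and 8.44 in PDGF-BB-treated and 8.03, 7.81, 8.41 and 8.57 in control cells. The third gave 10.17, 10.09, 9.99 and 10.20 in TGF-β2-treated, 10.53, 10.16 and 10.22 in PDGF-BB-treated and 10.25, 9.96, 9.80 and 10.12 in control cells. On both of these the groups overlapped, with TGF-β2 minus control at −0.26 and 0.08 and PDGF-BB minus control at −0.31 and 0.27. Averaged over its probes, Acadl differed by −0.15 (unadjusted p = 0.271) for TGF-β2 minus control. The first probe was also the member of narrowest spread, with a pooled SD of 0.06 against a median of 0.23 over members and 0.27 over all transcripts.

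Acadvl, Acadm and Acads, the very long-, medium- and short-chain enzymes, had overlapping groups in every comparison. Acadvl lay at 10.00 to 10.40 in TGF-β2-treated, 10.02 to 10.25 in PDGF-BB-treated and 10.16 to 10.47 in control cells, and Acadm averaged 12.69 ± 0.11, 12.68 ± 0.12 and 12.73 ± 0.17 in the same order (SD, n = 4, 3 and 4). Acads gave 10.83, 10.44, 10.29 and 10.98 in TGF-β2-treated, 11.19, 11.05 and 10.67 in PDGF-BB-treated and 10.55, 10.76, 10.31 and 10.82 in control cells. The highest pair of arrays was of PDGF-BB-treated cells, and the third fell among the others. PDGF-BB minus control was 0.36 (95% interval −0.08 to 0.80, unadjusted p = 0.103) and TGF-β2 minus PDGF-BB was −0.33 (unadjusted p = 0.125), while a second Acads probe gave 0.09 and −0.12.

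**Figure D3:**
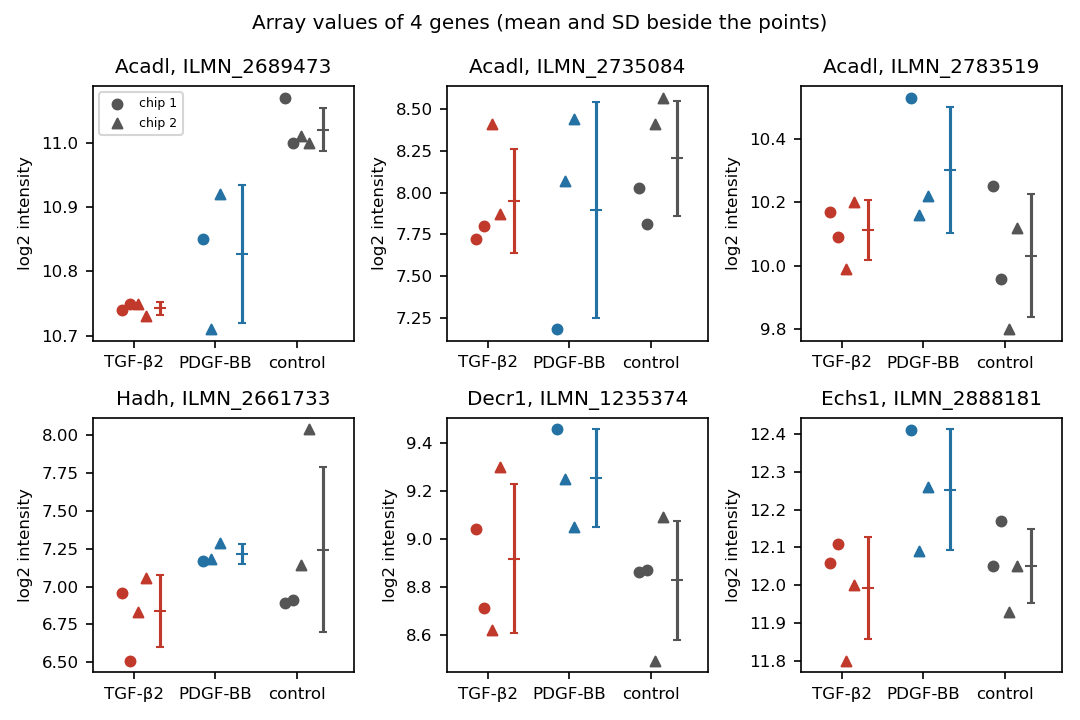
Log2 intensity on each array for the 3 probes of Acadl (top) and for Hadh, Decr1 and Echs1 (bottom), with TGF-β2, PDGF-BB and control cells from left to right, circles for chip 1 and triangles for chip 2, and the mean and SD beside the points. The first Acadl probe has all treated arrays below the controls, the other probes of Acadl overlap, and 1 control array of Hadh lies at 8.04, far above the rest.

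The later steps of the spiral are hydration (Echs1), a second oxidation (Hadh) and cleavage (Acaa2), and for long chains the trifunctional protein, whose β subunit is Hadhb. Hadh gave 6.96, 6.51, 6.83 and 7.06 in TGF-β2-treated, 7.17, 7.18 and 7.29 in PDGF-BB-treated and 6.89, 6.91, 7.14 and 8.04 in control cells. All TGF-β2 arrays were below all PDGF-BB arrays, and both groups overlapped the controls, of which the fourth array was highest. TGF-β2 minus control was −0.40 (95% interval −0.90 to 0.10, unadjusted p = 0.105), and −0.14 without that control array. A block on the replicate number sets same-numbered TGF-β2 and control arrays together. With it, the Hadh difference of −0.40 had an unadjusted p of 0.0388 and an adjusted p of 1 with limma. In the same block on the TGF-β2 and control arrays alone these were 0.0485 and 0.827, and with place on the chip as a block 0.0441 and 1. The adjusted p of Hadh lay between 0.827 and 1 over all alternatives. TGF-β2 minus PDGF-BB was −0.37 (95% interval −0.91 to 0.17, unadjusted p = 0.159). A dimmer Hadh probe, detected on 7 arrays, had overlapping groups in every comparison. It gave −0.20 for TGF-β2 minus control (unadjusted p = 0.399 with limma) and −0.34 for TGF-β2 minus PDGF-BB (unadjusted p = 0.198). For PDGF-BB minus control it gave 0.14, where the first probe gave −0.03.

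Echs1 gave 12.06, 12.11, 11.80 and 12.00 in TGF-β2-treated, 12.41, 12.09 and 12.26 in PDGF-BB-treated and 12.05, 12.17, 11.93 and 12.05 in control cells. A pair of the PDGF-BB arrays was above all others and the third was within them. TGF-β2 minus PDGF-BB was −0.26 (95% interval −0.56 to 0.05, unadjusted p = 0.0909), the lowest p of the members in that comparison, and PDGF-BB minus control was 0.20 (unadjusted p = 0.176). Acaa2 and Hadhb had overlapping groups throughout. Acaa2 lay at 10.73 to 11.27, 10.72 to 11.53 and 10.65 to 11.32, and Hadhb averaged 12.53 ± 0.26, 12.71 ± 0.26 and 12.64 ± 0.19 in TGF-β2-treated, PDGF-BB-treated and control cells (SD, n = 4, 3 and 4). For TGF-β2 minus PDGF-BB all 4 genes of these steps were below 0, from −0.37 to −0.11, with no p under 0.05. Of all 26 tested members, 16 were below 0 and 10 above in this comparison, and 44.9% of all transcripts were above 0. The 3 tested genes of electron transfer were all above 0. Acaa2 was at 0.09 without PDGF-BB replicate 1.

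Unsaturated fatty acids need the isomerase Eci1 and the reductase Decr1. Eci1 gave 12.76, 12.92, 12.88 and 12.67 in TGF-β2-treated, 12.71, 12.70 and 12.49 in PDGF-BB-treated and 12.77, 12.79, 12.95 and 12.76 in control cells. All PDGF-BB arrays were below every control array, and PDGF-BB minus control was −0.18 (95% interval −0.47 to 0.11, unadjusted p = 0.201). Decr1 gave 9.04, 8.71, 8.62 and 9.30 in TGF-β2-treated, 9.46, 9.25 and 9.05 in PDGF-BB-treated and 8.86, 8.87, 8.49 and 9.09 in control cells. The PDGF-BB arrays tended to the upper end, with the lowest of them just under the highest control. PDGF-BB minus control was 0.43 (95% interval 0.00 to 0.86, a fold of 1.34, unadjusted p = 0.0516, adjusted p = 1 with limma), and TGF-β2 minus PDGF-BB was −0.34 (unadjusted p = 0.115). These 2 genes, which serve the same kind of substrate, had differences of opposite sign for PDGF-BB minus control.

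Groups that did not overlap were rare among members. For TGF-β2 minus control 1 member, Acadl, was lower without overlap and 0 were higher, against 0.698% and 0.682% of all transcripts. For PDGF-BB minus control 2 members, Acadl and Eci1, were lower and 0 higher, against 1.70% and 1.95%. For TGF-β2 minus PDGF-BB 1 member, Hadh, was lower and 0 higher, against 1.71% and 3.41%. A single gene is already a larger share of 26 members than these, so the counts say no more than which genes they hold.

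Electron transfer flavoprotein is made of the products of Etfa and Etfb, and Etfdh encodes the dehydrogenase that hands its electrons to ubiquinone. Etfb gave 13.58, 13.83, 13.50 and 13.53 in TGF-β2-treated, 13.77, 13.46 and 13.41 in PDGF-BB-treated and 13.45, 13.54, 13.53 and 13.41 in control cells, with 1 high array in each treated group. TGF-β2 minus control was 0.13 (95% interval −0.16 to 0.42, unadjusted p = 0.357). A second Etfb probe gave −0.01. Etfa averaged 13.89 ± 0.09, 13.84 ± 0.05 and 13.82 ± 0.09 and Etfdh 11.20 ± 0.37, 11.15 ± 0.27 and 11.34 ± 0.19 in the same order of groups (SD, n = 4, 3 and 4). This Etfa probe gave 0.07 for TGF-β2 minus control and 0.02 for PDGF-BB minus control. The 3 other Etfa probes gave −0.09, −0.11 and −0.03, and −0.11, −0.10 and −0.06, all with overlapping groups. The Etfdh arrays of TGF-β2-treated cells formed 2 pairs, at 10.87 and 10.90 and at 11.51 and 11.53, and the control values of 11.15 to 11.57 overlapped with the upper pair.

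Acot2, a mitochondrial thioesterase that splits long-chain acyl-CoA, gave 6.98, 6.65, 6.90 and 7.41 in TGF-β2-treated, 6.73, 6.85 and 6.56 in PDGF-BB-treated and 7.10, 6.60, 5.96 and 6.72 in control cells. The groups overlapped, and TGF-β2 minus control was 0.39 (95% interval −0.10 to 0.88, unadjusted p = 0.110). On chip 1 alone this difference was −0.04 and on chip 2 alone 0.82. A second Acot2 probe gave 0.36 for TGF-β2 minus control and 0.42 for PDGF-BB minus control, where the first gave 0.12. Pdk4, the kinase that turns pyruvate dehydrogenase off when fat is burned, lay at 9.57 to 10.54 in TGF-β2-treated, 9.58 to 9.99 in PDGF-BB-treated and 9.58 to 10.26 in control cells, and no group stood apart.

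**Figure D4:**
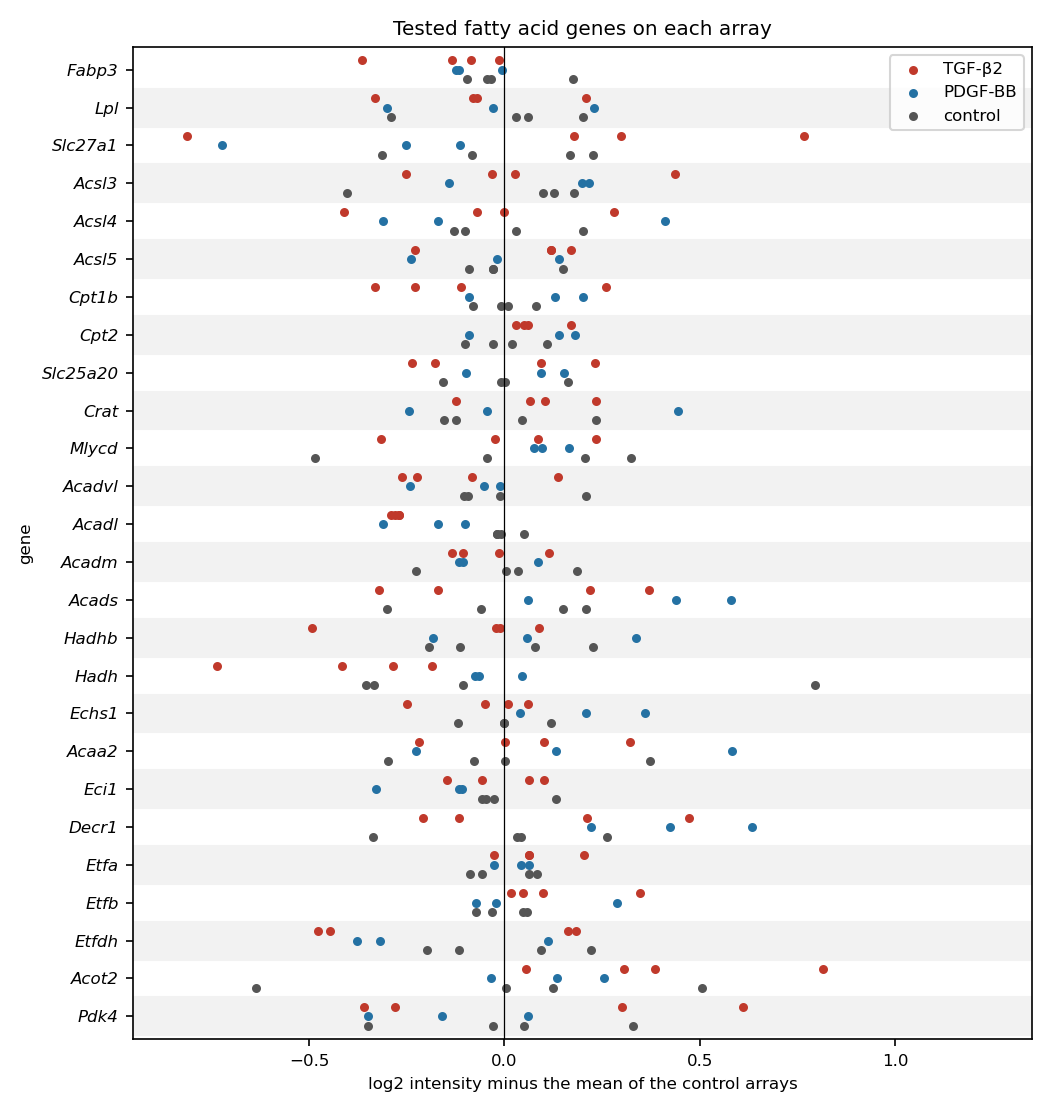
Log2 intensity on each array minus the mean of the 4 control arrays, for the 26 tested genes in the order of the pathway, with TGF-β2 in red, PDGF-BB in blue and control in grey. Most rows mix the 3 colours, and in the row of Acadl all treated points lie left of the control points.

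The members were measured by more than 1 tested probe for 14 genes, with 34 probes in all. For TGF-β2 minus control, the probes of a gene had 1 sign for 7 genes and both signs for 7. For PDGF-BB minus control these counts were 8 and 6, and for TGF-β2 minus PDGF-BB 9 and 5. The median spread between the probes of a gene (highest minus lowest log2 fold change) was 0.15 to 0.16. The median standard error of a difference over members was 0.17 for TGF-β2 minus control and 0.18 in the other comparisons. These are unlike measures, since the probes of a gene were read on the same arrays and the standard error holds differences between arrays.

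The arrays lay on 2 chips, with replicates 1 and 2 of TGF-β2-treated and control cells and replicate 1 of PDGF-BB-treated cells on chip 1. With group as a term in limma, 355 transcripts (2.75%) were called between the chips and 24.9% had an unadjusted p under 0.05, so more transcripts were called between chips than between groups. None of the 26 members was called. Acaa2, at −0.38 for chip 2 minus chip 1, had an unadjusted p of 0.0136, and Acsl3, at 0.34, one of 0.0169. Within the chips, the first Acadl probe gave −0.29 on chip 1 and −0.26 on chip 2 for TGF-β2 minus control, of similar size on each. These values rest on 2 arrays of each group per chip and hold for this probe only. Decr1 reached 0.59 on chip 1, which holds a single PDGF-BB array. With chip as a block, 0 members were called in any comparison. At an unadjusted p under 0.05 with limma there was then 1 member in each. These were Acadl for TGF-β2 minus control, Decr1 for PDGF-BB minus control and Echs1 for TGF-β2 minus PDGF-BB. The shares of all transcripts were 3.24%, 6.85% and 7.25% in the same order.

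Other genes of fatty acid handling were taken from a list of regulators, carriers, lipid droplet, peroxisomal and related genes. Of 67 with a probe, 55 were tested and 0 were called in any comparison. At an unadjusted p under 0.05 there were 0 for TGF-β2 minus control, 1 lower for PDGF-BB minus control (Acot13, a thioesterase, −0.47) and 5 higher for TGF-β2 minus PDGF-BB (Ppargc1a, Ppargc1b, the AMPK subunit gene Prkaa2, the peroxisome gene Pex11a and Pdp2). Acot13 gave 11.90, 12.58 and 12.50 in PDGF-BB-treated and 12.82, 12.54, 13.11 and 12.72 in control cells. The groups overlapped, with PDGF-BB replicate 1 far below the rest, and the Acot13 difference was −0.25 without it (unadjusted p = 0.191). Read against 2.02%, 3.20% and 5.13% of all transcripts, the first and second counts were below the background share and the last above it. These are small counts among 55 genes, and whether they depart from the background was not tested.

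The probes used for the nuclear receptor genes Ppara and Rxra were detected on no array (lowest detection p-values 0.222 and 0.385). That of Ppard was detected on 2, so these genes were not tested. The Ryr2 probe was also detected on none, and a probe without detection does not show that the transcript was absent. Esrra, which encodes ERRα, was tested, with TGF-β2 minus control at −0.02 and PDGF-BB minus control at 0.16. Ppargc1a, the gene of the coactivator PGC-1α, gave 9.77, 9.92, 10.01 and 9.55 in TGF-β2-treated, 8.04, 9.03 and 9.09 in PDGF-BB-treated and 9.79, 8.42, 9.99 and 9.64 in control cells. All TGF-β2 arrays were above all PDGF-BB arrays, and 1 control array was low. TGF-β2 minus PDGF-BB was 1.09 (95% interval 0.35 to 1.84, unadjusted p = 0.00746, adjusted p = 0.755 with limma), and 0.75 without PDGF-BB replicate 1. Pdp2, a phosphatase that turns pyruvate dehydrogenase back on, gave 0.67 (unadjusted p = 0.00562, adjusted p = 0.755) and Ppargc1b, which encodes PGC-1β, 0.74 (unadjusted p = 0.0230, adjusted p = 0.872), both also without overlap of the treated groups. For TGF-β2 minus control, the lowest p belonged to Pdp1, another such phosphatase (−0.25, unadjusted p = 0.0606), Pdp2 (0.32) and Lipe, hormone-sensitive lipase (−0.24). For PDGF-BB minus control, Plin3, a lipid droplet coat gene, gave 0.29 with no overlap of the groups (unadjusted p = 0.0515) and Ppargc1a gave −0.74 (unadjusted p = 0.0517). The Ppargc1a difference for PDGF-BB minus control was −0.40 without PDGF-BB replicate 1 (unadjusted p = 0.273) and −1.09 without control replicate 2, the low control array (unadjusted p = 0.00111, adjusted p = 0.529 with limma). Its adjusted p lay between 0.529 and 1 over all alternatives.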

How the data were processed

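Gene expression was analysed in 11 arrays of HL-1 cells (MouseRef-8 Expression Beadchips). For each probe and array the authors deposited a non-normalized signal intensity with its bead standard error, bead number and detection p-value, and a normalized signal intensity on a linear scale. The paper names cubic spline normalization for the normalized values, and the submitters' processing notes name GenomeStudio. Groups came from the sample labels.

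The non-normalized intensities were corrected from the detection p-values, offset by 16, quantile-normalized and taken to log2 with neqc of limma 3.58.1 (R 4.3.3). Background is estimated and quantiles are made equal by this, so an overall shift between arrays would be removed. The 12894 probes detected (p-value under 0.05) on 3 or more of the 11 arrays were tested with lmFit and eBayes, 1 mean per group, no block, with Benjamini-Hochberg adjustment over all of them and a threshold of 0.05. Each gene entered with its probe of highest mean normalized signal. The fit was tested on simulated arrays with changes of 2-fold or more planted in 200 probes and no chip difference. Changes as small as those of the members were not simulated. The number of arrays limits the precision. The p-values of this fit rest on the spread between arrays of a group, which holds differences between flasks and between chips together. The eBayes step draws the spread of each probe toward that of all tested probes. An SE therefore does not follow from the pooled SD of a probe alone, as for Acadl (pooled SD 0.06, SE 0.11 for TGF-β2 minus control).

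Probes were named from the platform annotation (1 symbol for 23978, several for 0, none for 1719), updated through Entrez identifiers for 23962. The members and gene lists were chosen with earlier results of these data known. Members described in full were the 5 of lowest unadjusted p in each comparison, and of the other pathway genes the 3 of lowest p and the regulators Ppara, Ppard, Rxra, Ppargc1a and Esrra. Acot13, Prkaa2 and Pex11a were also named as part of small counts. The comparison of chips was chosen after seeing the data. Summaries and figures used Python 3.11.15 with pandas 2.3.3 and matplotlib 3.10.9.

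Pairing by the replicate numbers of the labels was checked from the deviations from group means. Same-numbered TGF-β2 and control arrays correlated at 0.191, 0.400, 0.504 and 0.371. They also shared a chip and a run of positions on it (A to C or E to G), here called the place on the chip. The check therefore cannot tell paired flasks from a chip difference. Within a place the position letter went with the group, namely A or E for control, B or F for TGF-β2 and C or G for PDGF-BB. Place as a block thus cannot remove a difference between single positions. The replicate numbers were used as a block among the alternatives only. PDGF-BB and control arrays gave −0.138, −0.442 and 0.203, and TGF-β2 and PDGF-BB arrays 0.182, −0.328 and 0.328. A PDGF-BB sample that the paper describes as an outlier was not analysed here. By chip and position, PDGF-BB replicates 2 and 3 lie with replicates 3 and 4 of the other groups, so the replicate number sets PDGF-BB replicate 2 beside arrays of the other chip, and place on the chip was used as a further block. Alternatives were other normalizations and filters, chip, place on the chip and replicate as blocks, array weights, each chip alone, the mean over probes, and each array left out.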

Additional observations from a re-analysis of the deposited data

Results flagged for a closer look

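Of 52 groups of 4 arrays (26 genes, in TGF-β2-treated and control cells), 4 held an array further from the rest than Dixon's 95% critical value allows, where 2.60 are expected by chance at 1 in 20. Acsl5, an acyl-CoA synthetase gene, was at 12.06 (log2 intensity) on TGF-β2 replicate 2, against 12.41 to 12.46 on the other TGF-β2 arrays. Cpt2, the inner-membrane carnitine palmitoyltransferase gene, was at 10.92 on TGF-β2 replicate 2, against 10.78 to 10.81. Acsl3 was at 9.56 on control replicate 2, against 10.06 to 10.14 on the other control arrays. Eci1, the isomerase gene, was at 12.95 on control replicate 3, against 12.76 to 12.79.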

How the results depend on the processing

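No member was called under any alternative, in any comparison. Over the members and the 8 other named pathway genes, 845, 811 and 811 alternative values for TGF-β2 minus control, PDGF-BB minus control and TGF-β2 minus PDGF-BB stayed on their side of the threshold, with lowest adjusted p-values of 0.781, 0.525 and 0.307. The sign of an uncalled difference changed in 55, 53 and 60 of them. Over all transcripts, 1 was called without background correction for TGF-β2 minus control. For PDGF-BB minus control 1 was called with the authors' normalized values and 1 without background correction, and for TGF-β2 minus PDGF-BB 1 and 2. These were Nt5c1b or Orc2, neither of them a fatty acid gene, and the cause was not tested. The median log2 fold change of the members for PDGF-BB minus control, 0.04, was 0.00 without the detection filter, 0.00 on chip 2 alone and 0.00 with array weights, and leaving out 1 array gave −0.01 to 0.04, the lowest without control replicate 2. For TGF-β2 minus control leaving out 1 array gave −0.05 to 0.00, the lowest without TGF-β2 replicate 3. For TGF-β2 minus PDGF-BB the median was 0.00 on chip 2 alone.

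With the replicate number as a block, 0 members were called in each comparison, and the median was −0.01 for TGF-β2 minus control, 0.02 for PDGF-BB minus control and −0.02 for TGF-β2 minus PDGF-BB. The block changed no call. The members at an unadjusted p under 0.05 were then 2 for TGF-β2 minus control (Acadl and Hadh), 2 for PDGF-BB minus control (Acads and Decr1) and 3 for TGF-β2 minus PDGF-BB (Acads, Decr1 and Hadh), against 1, 0 and 0 without the block. The unadjusted p of limma was 0.0150 for Acads and 0.00339 for Decr1 for PDGF-BB minus control. For TGF-β2 minus PDGF-BB the unadjusted p of limma was 0.0192 for Acads, 0.00988 for Decr1 and 0.0169 for Hadh. Over all transcripts the shares with the block were 2.94%, 6.41% and 7.38%. The PDGF-BB numbers do not follow place on the chip. With place on the chip as a block, 0 members were called in each comparison, the medians were −0.01, 0.00 and −0.04, and the members at an unadjusted p under 0.05 were 2 (Acadl and Hadh), 0 and 1 (Echs1), against 3.99%, 8.74% and 8.41% of all transcripts. Echs1 was then at an unadjusted p of 0.0347 for TGF-β2 minus PDGF-BB with limma. Acadl, at an unadjusted p of 0.0319 for TGF-β2 minus control, was at 0.0765 and 0.0522 without control replicates 1 and 3, and at 0.0605 and 0.0622 without TGF-β2 replicates 1 and 4. Chip 1 holds 1 PDGF-BB array, which is there assumed to vary like the other groups. With 3 or 4 arrays per group, the interval lay within a 1.5-fold change for most members, and smaller changes can remain within it.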
